A study of Mus musculus with 48 samples.

Results

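The cytochrome P450 genes of families 1 to 4 were followed over a day in mouse liver. They were chosen by name, as every gene whose symbol starts with Cyp1, Cyp2, Cyp3 or Cyp4 followed by a letter, with a mean of at least 1 RPKM (reads per kilobase of gene, scaled to the size of the library) both in ribosome footprints and in total RNA. That gave 49 genes of the 9445 tested, in 15 subfamilies, with 1 gene of family 1, 30 of family 2, 6 of family 3 and 12 of family 4. A further 6 genes of these families were listed and fell outside, namely Cyp1a1, Cyp2a22, Cyp2c39, Cyp2j9 and Cyp4f18, which missed 1 RPKM in at least 1 assay, and the pseudogene Cyp2d37-ps, which was listed in total RNA alone at 28.5 RPKM. Cytochromes P450 of these families are heme enzymes of the endoplasmic reticulum that insert an oxygen atom into lipid-soluble compounds. They draw electrons from the reductase Por or from cytochrome b5, and the liver holds a large variety of them. Enzymes of families 1 to 3 clear drugs and plant compounds and also act on steroids, bile acids and fatty acids, while family 4 enzymes hydroxylate the end of fatty acid chains. Their genes are classical targets of nuclear receptors and of the dioxin receptor Ahr, and several are transcribed mainly in male or mainly in female mice. Not every one of the 49 is a xenobiotic enzyme: besides family 4 the rule takes in Cyp2r1 and Cyp2u1, which act on vitamin D and fatty acids.

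The study asked which liver transcripts cycle over the day and which of them are translated in a cycle. All groups came from male C57BL/6JRj mice of 11 to 12 weeks, kept for 2 weeks in 12 h of light and 12 h of darkness, with no treatment and no altered gene. The livers were taken at 12 times, every 2 h from ZT0 (lights on) to ZT22, and each time had 2 replicates, each made by pooling the lysates of 2 livers (48 mice in all). Each of the 24 lysates gave 1 footprint library, which holds the mRNA fragments protected by ribosomes, and 1 total RNA library. The replicate pools are thus different animals, and a pool hides the difference between its 2 mice.

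Judged from the smallest steps between the deposited values, the footprint libraries held about 13.9 to 43.1 M reads and those of total RNA about 3.88 to 23.8 M. The 10 total RNA libraries of ZT12 to ZT20 were shallower, at 3.88 to 11.7 M. Hepatocyte markers were abundant throughout, with the 6 fixed markers summing to 51756 to 86878 RPKM in total RNA, whereas 5 endothelial markers summed to 119 to 176 and 5 Kupffer cell markers to 205 to 378 RPKM. In 6 pools (both of ZT2, replicate 1 of ZT4 and of ZT6, replicate 2 of ZT8 and of ZT16), 8 listed markers of pancreatic acinar cells summed to 139 to 679 RPKM in total RNA, against 0.215 to 11.0 in the other 18. At ZT22, both total RNA pools were the highest or the lowest of all 24 for 14.1% of the genes tested, against 1.5% in footprints, and the ZT22 total RNA libraries thus stood apart. Calls of the 49 genes that were lost or gained without the pancreatic or the ZT22 pools are given at the gene. In such bulk lysates, fewer cells of a type and less RNA per cell cannot be told apart.

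P450 genes stand in clusters of close copies, which decides how well reads can be told apart. Of the 49 genes, 19 shared at least 50% of the 30-base stretches of their coding sequence with other genes, and 6 shared none (Cyp2c23, Cyp2c70, Cyp2e1, Cyp2f2, Cyp2r1 and Cyp2u1). Cyp2a4 and Cyp2a5 were 98.5% identical in coding sequence and shared 58.8% of these stretches, Cyp4a12a and Cyp4a12b 69.8%, Cyp2c40 and Cyp2c69 61.9%. Cyp3a25 and Cyp3a59 were 97.5% identical. How reads that match several places were counted is not given in the sources used here, so values within such pairs are uncertain where the members differ little. The likeness reaches upstream of the genes, as the stretches shared by the RefSeq windows of a pair show. The pair Cyp2a5 and Cyp2a4 is shown because only Cyp2a5 was called rhythmic, and the pair Cyp3a16 and Cyp3a44 because both were. Lower case marks bases that are the same in both genes of the pair, and capitals mark bases that differ.
Cyp2a5 (chr7:26835089-26835304, GRCm38.p6, plus strand, bases 250 to 35 before the RefSeq start): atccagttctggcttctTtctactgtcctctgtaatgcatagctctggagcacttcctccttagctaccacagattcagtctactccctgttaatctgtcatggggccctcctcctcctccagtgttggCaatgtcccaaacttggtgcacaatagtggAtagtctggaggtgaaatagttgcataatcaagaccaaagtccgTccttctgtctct
Cyp2a4 (chr7:26306943-26307158, plus strand, bases 249 to 34 before it): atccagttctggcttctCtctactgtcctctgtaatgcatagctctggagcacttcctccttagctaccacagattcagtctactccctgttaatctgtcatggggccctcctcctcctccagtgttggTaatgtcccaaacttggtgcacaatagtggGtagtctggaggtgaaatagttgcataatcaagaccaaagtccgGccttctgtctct
Cyp3a16 (chr5:145469728-145469973, minus strand, bases 250 to 5 before it): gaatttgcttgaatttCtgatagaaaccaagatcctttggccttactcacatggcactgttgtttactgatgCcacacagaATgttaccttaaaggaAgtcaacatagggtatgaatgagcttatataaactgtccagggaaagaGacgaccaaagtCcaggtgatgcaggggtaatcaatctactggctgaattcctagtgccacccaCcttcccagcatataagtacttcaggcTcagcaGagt
Cyp3a44 (chr5:145805875-145806120, minus strand, bases 246 to 1 before it): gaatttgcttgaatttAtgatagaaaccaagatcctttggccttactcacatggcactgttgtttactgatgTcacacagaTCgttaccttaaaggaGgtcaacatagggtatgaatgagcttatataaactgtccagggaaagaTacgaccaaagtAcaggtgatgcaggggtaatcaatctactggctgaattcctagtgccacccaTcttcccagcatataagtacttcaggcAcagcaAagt
The Cyp2a pair differed at 4 of 216 aligned bases and the Cyp3a pair at 10 of 246. RefSeq windows from 250 bases before the start to 50 after it were found for 37 of the 49 genes. The D box, searched on both strands as TTATGTAA or TTACGTAA and bound by Dbp, Tef and Hlf, was in none of the 37 and in 1.06% of 27025 windows of all genes. The E box CACGTG was in 2 (Cyp2j6 and Cyp4v3) against 7.24% of all windows. The nuclear receptor half-site AGGTCA, on either strand, was in 11 of the 37, or 29.7%, against 16%. Close copies share their letters, so these 11 (among them both Cyp2a genes above, Cyp3a25 and Cyp3a59) are not separate instances, and a match or its lack describes only these windows.

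RPKM is scaled to gene length, so levels can be compared between genes, and they ranged from 1.3 to 3493 RPKM as means over the total RNA libraries. Cyp2e1 (ENSMUSG00000025479; chromosome 7, 140763739 to 140774987, plus strand, GRCm38), which oxidises ethanol and paracetamol, was the most abundant, with a mean of 3493 RPKM in total RNA and 6074 in footprints. Cyp3a11, the main drug-metabolising Cyp3a enzyme of mouse liver and a target of the pregnane X receptor, followed with 2694 RPKM in total RNA and 2966 in footprints. Cyp2d9, a steroid hydroxylase that male mice express more, stood at 848 RPKM in total RNA and 1005 in footprints, and Cyp2f2, which activates naphthalene, at 755 RPKM in total RNA and 1740.5 in footprints. Cyp2c29, an abundant drug-metabolising member of the Cyp2c cluster, had 611 RPKM in total RNA and 1008 in footprints. In all, 24 genes stood above 100 RPKM in total RNA, 13 between 10 and 100, and 12 below 10. The lowest means in total RNA were those of Cyp2b10 (1.3 RPKM), Cyp2d11 (1.43), Cyp3a16 (1.5) and Cyp4f16 (1.53). The 49 genes together summed to 12244 to 17676 RPKM in total RNA libraries and 17168 to 24886 in footprint libraries. Cyp2e1 alone held 16.4% to 30.9% of the summed total RNA value and 18.4% to 36.8% of the footprint one. Cyp3a11 held 13.9% to 22.2% and 10.0% to 18.5%.

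**Figure D1:**
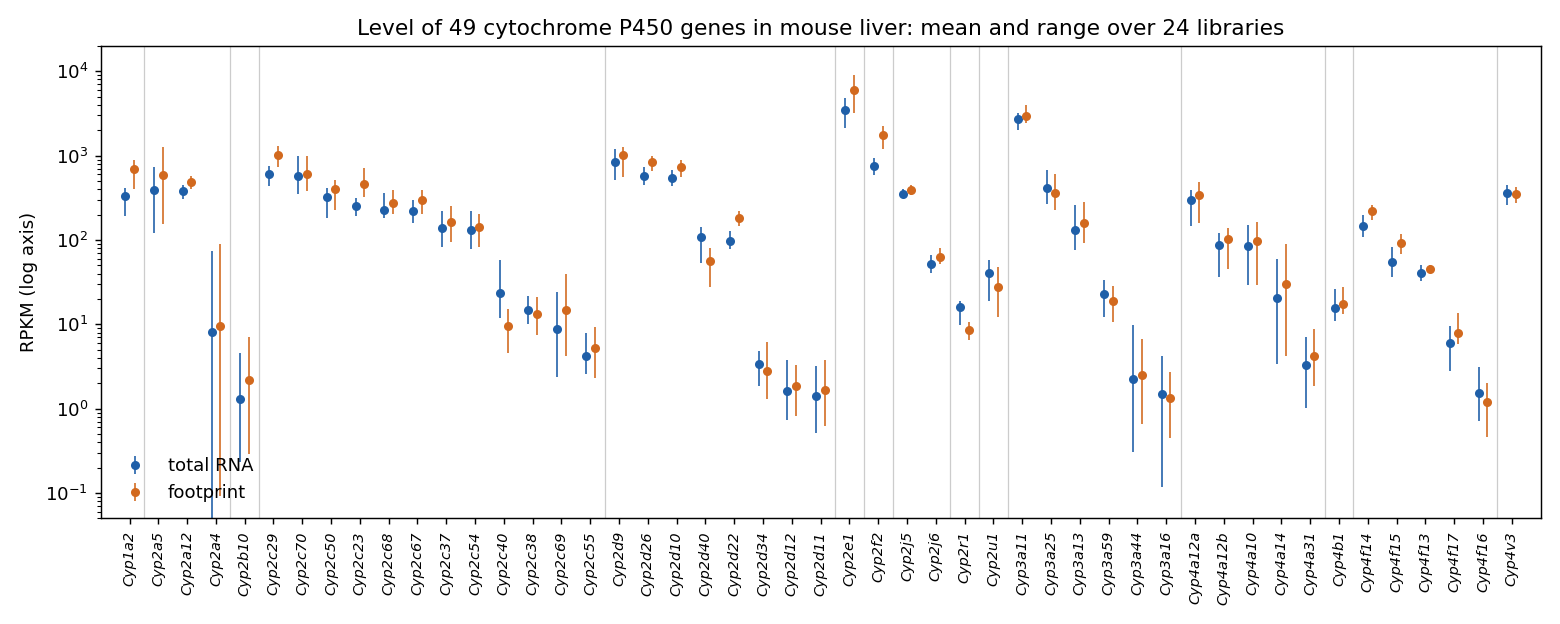
Level of each of the 49 genes, grouped by subfamily (x axis), in RPKM on a log axis, with points for the mean of 24 libraries and bars from the lowest to the highest library (blue total RNA, orange footprints). Cyp2e1 and Cyp3a11 stand highest, 12 genes lie below 10 RPKM in total RNA, and the bar of Cyp2a4 runs from 0, drawn at the axis floor, to 74.9 RPKM in total RNA.

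A wave of 24 h was fitted to the 24 libraries of each assay. Genes count as called here where the adjusted p fell below 0.05 and the wave spanned 1.5-fold or more from trough to peak. In total RNA 10 of the 49 genes were called (Cyp2a5, Cyp2b10, Cyp2c70, Cyp2d11, Cyp2e1, Cyp2u1, Cyp3a16, Cyp3a44, Cyp3a59 and Cyp4f17), or 20.4%, where 15.8% of all tested genes were. In footprints 13 were called, or 26.5%, where 16.7% of all genes were. In both assays 8 were called, or 16.3%, beside 11% of all genes. In total RNA alone 2 were called and in footprints alone 5, beside 4.83% and 5.66% of all genes. With a free level for each time, which assumes no wave form, 20 passed in total RNA and 18 in footprints, beside 30.3% and 22.8% of all genes. The fold there runs from the lowest to the highest time-point mean, not along the wave. For total RNA of Cyp2r1 it was 1.75, beside 1.13 for the wave. Genes added in both assays were Cyp2c29, Cyp2c37, Cyp2c54, Cyp4a12a, Cyp4a12b and Cyp4b1. Added in total RNA alone were Cyp2c23, Cyp2c67, Cyp2d22, Cyp2r1 and Cyp4f14, and in footprints alone Cyp3a59. The share in total RNA lay near that of all genes, and the difference in either assay was not tested. The median fold was 1.34 in total RNA and 1.39 in footprints, beside 1.25 and 1.23 over all genes. Of the 24 genes above 100 RPKM in total RNA, 3 passed in total RNA and 3 in footprints, whereas of the 12 below 10 RPKM, 5 and 8 did. Among all tested genes these shares were 15.4% and 21.1% above 100 RPKM, and 17.5% and 18% below 10. Peaks fell in the dark for 7 of the 10 genes called in total RNA (8.06% of all genes were called with a dark peak and 7.76% with a light one) and for 9 of the 13 called in footprints (9.05% and 7.6%). With no minimum fold, 19 passed in total RNA and 22 in footprints, beside 43.1% and 45% of all genes.

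**Figure D2:**
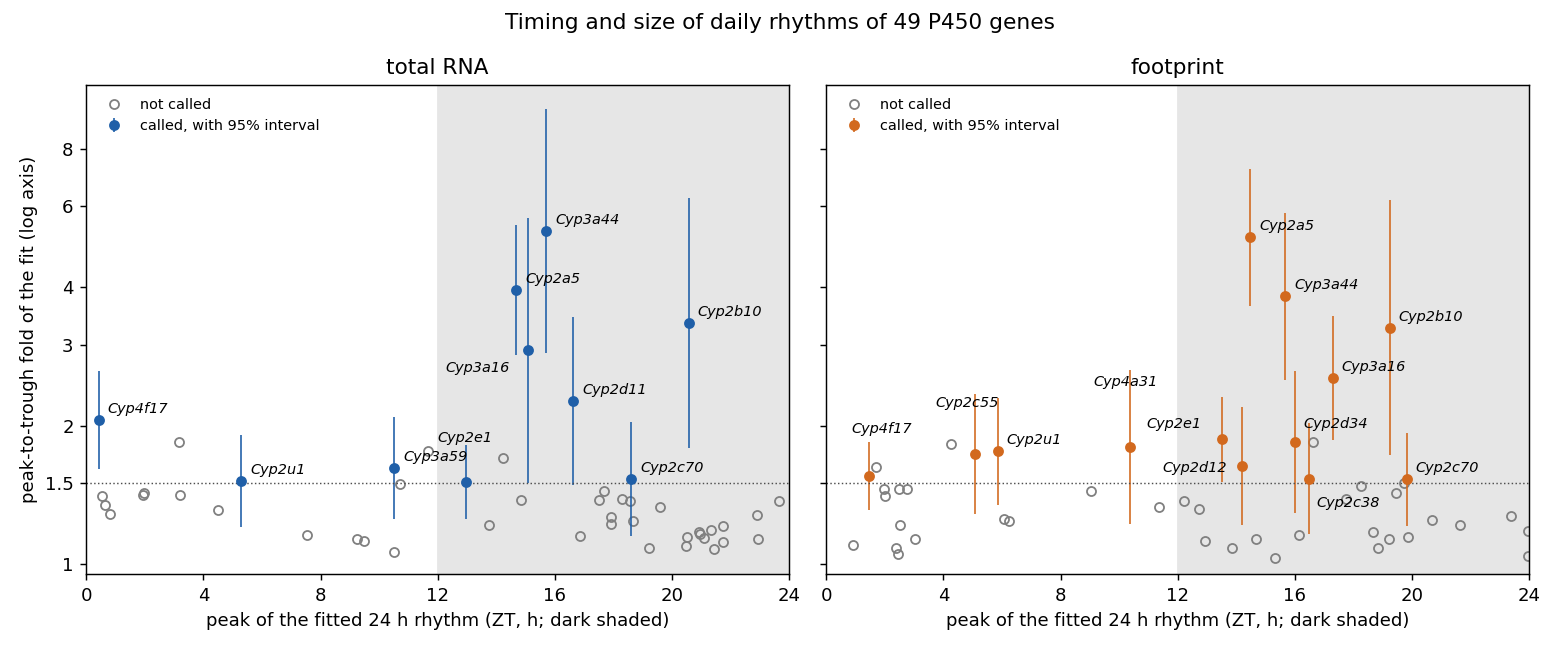
Peak time of the fitted rhythm (x axis, ZT in h, dark phase shaded) against its peak-to-trough fold (y axis, log scale) for the 49 genes in total RNA (left) and footprints (right); filled points with 95% intervals are called genes, open points are not called, and the dotted line marks 1.5-fold. The widest rhythms, those of Cyp3a44, Cyp2a5, Cyp2b10 and Cyp3a16, peak in the dark in both panels, and Cyp4f17 and Cyp2u1 peak in the light.

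In the Cyp2a subfamily, Cyp2a5 cycled with a peak early in the dark phase, while Cyp2a12 and Cyp2a4 did not pass. Cyp2a5 (ENSMUSG00000005547; chromosome 7, 26835305 to 26843548, plus strand), which hydroxylates coumarin and nicotine, had total RNA values of 198 and 122 at ZT0, 147 and 173 at ZT2, 154 and 173 at ZT4, 169.7 and 199 at ZT6, 341 and 529 at ZT8 and 427 and 378 at ZT10 RPKM in the light phase. In the dark phase, Cyp2a5 stood at 642 and 724 at ZT12, 654 and 594 at ZT14, 396 and 363 at ZT16, 570.0 and 528 at ZT18, 558 and 623 at ZT20 and 355 and 272 at ZT22 RPKM. Total RNA of the gene was thus lowest from ZT0 to ZT6. Its footprint values were 259 and 154 at ZT0, 208 and 206 at ZT2, 205 and 233 at ZT4, 228 and 268 at ZT6, 469 and 878 at ZT8 and 733 and 605 at ZT10 RPKM in the light phase. Footprints of Cyp2a5 in the dark were 1032 and 1269.9 at ZT12, 1049.7 and 983 at ZT14, 624 and 585 at ZT16, 873 and 945 at ZT18, 803 and 853 at ZT20 and 470.0 and 372 at ZT22 RPKM. In both assays the 8 libraries of ZT0 to ZT6 lay below the other 16, without overlap, and the ZT16 libraries dipped below those of ZT14 and ZT18. The fitted rhythm was 3.94-fold (95% interval 2.85 to 5.45) in total RNA with a peak at ZT14.7 ± 0.901 h (half-width of the 95% interval; adjusted p = 1.11e-06) and 5.13-fold (95% interval 3.64 to 7.24) in footprints with a peak at ZT14.5 (adjusted p = 2.04e-07). It stayed called with every single pool left out, with a fold of at least 3.68 in total RNA. Cyp2a12, which hydroxylates steroids and bile acids, ranged from 308 RPKM (ZT10 replicate 2) through a median of 390.1 to 449 (ZT20 replicate 2) in total RNA and was not called, at 1.09-fold (adjusted p = 0.334). The ratio of Cyp2a5 to Cyp2a12 itself moved 3.94-fold (95% interval 2.89 to 5.35) in total RNA and 4.5-fold (95% interval 3.21 to 6.3) in footprints (permutation test over 24 pools, adjusted p = 7e-05 in each, the smallest possible after adjustment over 7 pairs).

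Cyp2a4, a testosterone hydroxylase that female mice express more, stood far above the rest in a few pools, whatever their time. In total RNA it stood at 66.5 RPKM in ZT10 replicate 2 and 74.9 in ZT22 replicate 2, at 15 in ZT4 replicate 1, 8.26 in ZT6 replicate 1 and 0 to 3.88 in the other 20. Footprints showed the same pools, with 89.9, 85.2, 16.9 and 7.26 RPKM against 0.0911 to 5.49. The spread between its replicate pools (SD 2.52 on the log2 scale in total RNA) exceeded that of 99.9% of all genes, and no rhythm was called (adjusted p = 0.982). Its near-identical neighbour did not stand out there, with 378 RPKM of Cyp2a5 in ZT10 replicate 2 beside 427 in replicate 1. Other genes stood apart in those same lysates (total RNA values, unless footprints are named). Glul, the glutamine synthetase of pericentral hepatocytes, was at 285 and 308 RPKM in them and at 506 to 593 in 19 others. Replicate 1 of ZT2, ZT4 and ZT6 lay between, at 359, 372 and 382 RPKM. Footprints of Cyp2a4 there, at 5.49, 16.9 and 7.26 RPKM, were the next highest after those of ZT10 and ZT22 replicate 2. These pools also held pancreatic transcripts. So did replicate 2 of ZT2, ZT8 and ZT16, where Glul was at 550, 571 and 556 RPKM. Footprints of Glul were lowest in ZT10 replicate 2 and ZT22 replicate 2, at 316 and 269 RPKM, against 340 to 654 elsewhere. The 6 pericentral markers listed summed to 1682 and 1510.3 RPKM, against 1603 to 2133 in the other pools. In footprints they summed to 2038 and 1942 RPKM, within the 1812 to 2535 of the other pools. Besides Glul, Rgn was at 714 and 638 RPKM, against 692 to 994 elsewhere, and Axin2, Lgr5, Oat and Slc1a2 lay within the range of the other 22 pools. The 6 periportal markers summed to 5967 and 7481 RPKM, against 3617 to 5362 in the other pools. In footprints their sums, 6343 and 7439 RPKM, lay within the 4168 to 7528 of the other pools. Gls2 (339 and 366 RPKM, against 145 to 247 elsewhere), Sds (277 and 367 RPKM, against 87.5 to 246 elsewhere) and Ass1 (2012 and 3244 RPKM, against 1041 to 1863 elsewhere) had their highest values in these pools. Hal and Cps1 were highest in ZT22 replicate 2 alone, and Pck1 lay within the range of the others. In footprints Gls2 and Sds were again highest in both pools, whereas Ass1 in ZT10 replicate 2 (2736 RPKM) lay within the range of the others. The 6 male liver markers summed to 31587 and 35733 RPKM, against 30950.3 to 49097 in the other pools. Cyp7b1 and Selenbp2, which male liver expresses more, were at 193 and 491 RPKM in ZT10 replicate 2 and at 94.2 and 561 in ZT22 replicate 2, their lowest or second lowest values. Another male gene, Hsd3b5, lay within its range there (264 and 154 RPKM, against 71.5 to 328 over all pools). Elovl3, Serpina1e and Mup20 also lay within the range of the others. Of 6 female liver markers only Acot3 was listed, at 0.220 to 6.61 RPKM. These pools were picked for their Cyp2a4 value after it was seen, and their part in the results was not tested beyond leaving both out. Without them 10 of the 49 genes passed in total RNA and 14 in footprints, beside 15.4% and 16.7% of all genes.

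**Figure D3:**
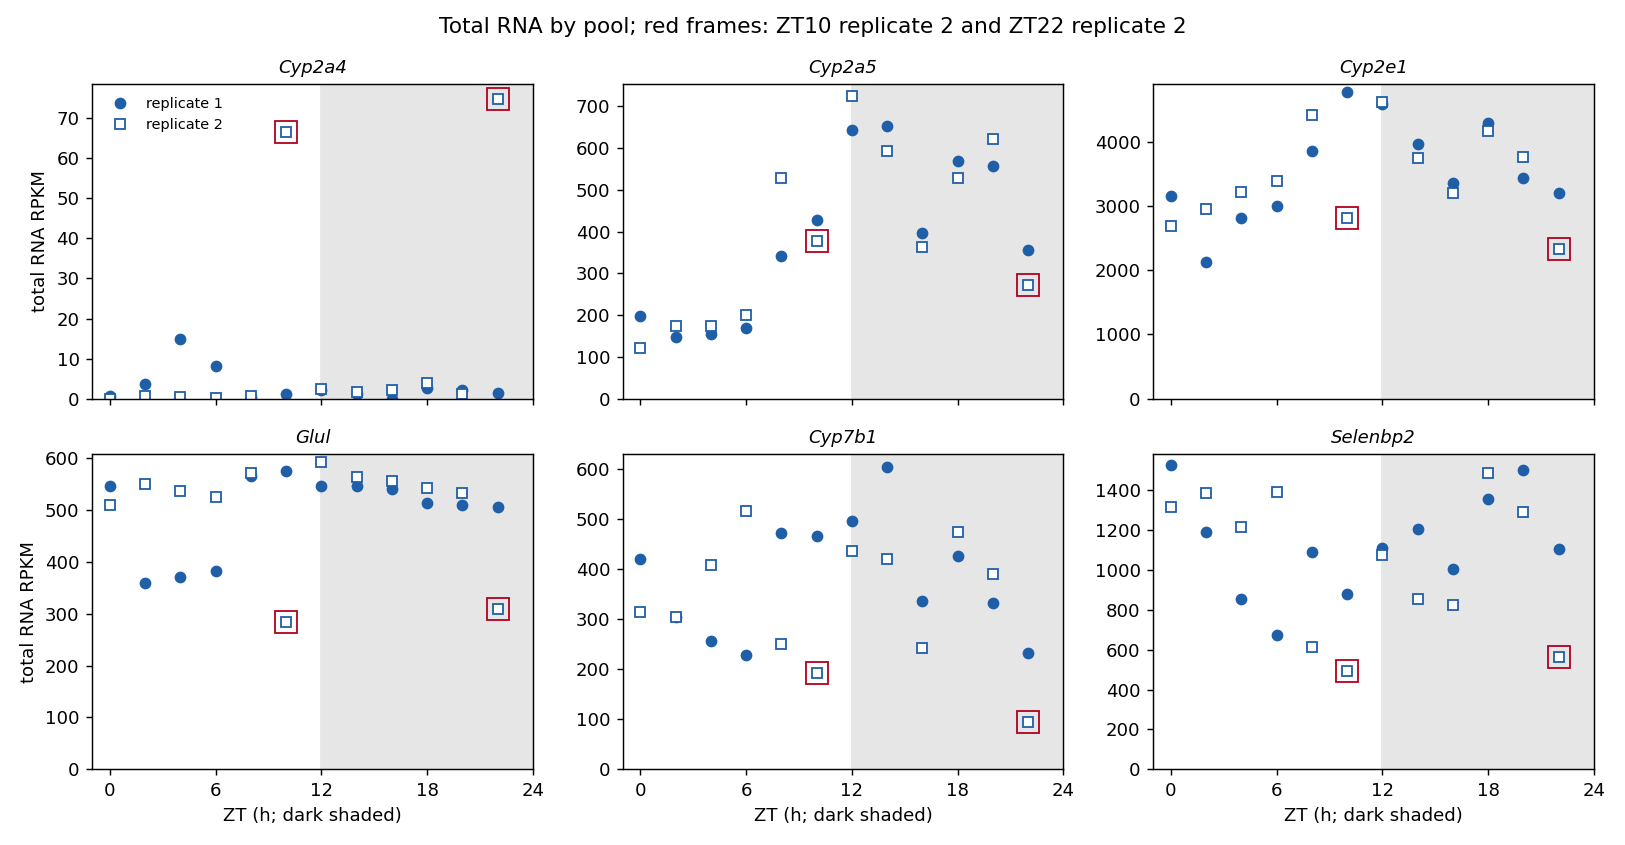
Total RNA (y axes, RPKM) of Cyp2a4, Cyp2a5, Cyp2e1, Glul, Cyp7b1 and Selenbp2 in each of the 24 pools by time (x axis, ZT in h, dark phase shaded), with filled circles for replicate 1, open squares for replicate 2 and red frames around ZT10 replicate 2 and ZT22 replicate 2. The framed pools are highest for Cyp2a4, at 66.5 and 74.9 RPKM, and lowest for Glul, at 285 and 308, while Cyp2a5 is not set apart in them.

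Cyp2e1 peaked around lights off in both assays, with the wider fitted fold in footprints. Its total RNA values were 3160.4 and 2684 at ZT0, 2121 and 2959 at ZT2, 2811 and 3222 at ZT4, 2996 and 3384 at ZT6, 3861 and 4409 at ZT8 and 4770.2 and 2807 at ZT10 RPKM in the light phase. In the dark phase, Cyp2e1 stood at 4583 and 4613 at ZT12, 3959 and 3753 at ZT14, 3362 and 3199 at ZT16, 4294 and 4164 at ZT18, 3437 and 3763 at ZT20 and 3195 and 2328 at ZT22 RPKM. Both ZT12 pools were high, ZT10 replicate 1 was the highest and ZT2 replicate 1 the lowest. Footprint values were 5412 and 4400.1 at ZT0, 3197 and 4479 at ZT2, 4197 and 5683 at ZT4, 4412 and 5566 at ZT6, 5690.2 and 7206 at ZT8 and 8610.3 and 5549 at ZT10 RPKM in the light phase. Footprints of Cyp2e1 in the dark were 8223 and 9147 at ZT12, 7643 and 7063 at ZT14, 6431 and 6263 at ZT16, 7819.9 and 7731 at ZT18, 5956 and 6253 at ZT20 and 5642 and 3192 at ZT22 RPKM. The highest footprint pool was ZT12 replicate 2, and ZT10 replicate 2 and ZT22 replicate 2, the pools rich in Cyp2a4, lay far under the other pool of their time in both assays. The fit gave 1.51-fold (95% interval 1.25 to 1.82) with a peak at ZT13.0 ± 1.73 h in total RNA (adjusted p = 0.00291) and 1.87-fold (95% interval 1.51 to 2.31) at ZT13.5 in footprints (adjusted p = 1.63e-04). In total RNA the fold sat at the threshold and fell under 1.5, to 1.43 at the lowest, when any 1 of 9 pools was left out (replicate 1 of ZT2, ZT4, ZT10, ZT12 and ZT18 and replicate 2 of ZT0, ZT8, ZT12 and ZT22). It was 1.44-fold without the 6 pools with pancreatic transcripts, 1.49-fold without ZT18, 1.47-fold without ZT22 and 1.47-fold with upper quartile scaling, with an adjusted p that stayed at 0.0363 or less under every alternative. The footprint call held without any single pool. Without both pools rich in Cyp2a4 the folds were 1.53 and 1.83.

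The remaining single members of families 1 and 2 differed widely. Cyp2b10 (chromosome 7, 25897620 to 25926624, plus strand), the classical phenobarbital-induced target of the receptor CAR (Nr1i3), was scarce, with about 17 reads in the median total RNA library. Its total RNA values were 1.15 and 0.765 at ZT0, 1.64 and 1.69 at ZT2, 1.16 and 0.849 at ZT4, 0.68 and 0.379 at ZT6, 0.855 and 0.482 at ZT8 and 0.247 and 1.46 at ZT10 RPKM in the light phase. In the dark phase, Cyp2b10 stood at 0.232 and 0.548 at ZT12, 0.787 and 0.345 at ZT14, 3.32 and 4.59 at ZT16, 1.49 and 1.77 at ZT18, 1.31 and 2.0 at ZT20 and 1.33 and 2.21 at ZT22 RPKM, and both ZT16 pools were the highest of the 24. Footprints also put both ZT16 pools on top, at 7.0 and 5.24 RPKM. The fit gave 3.33-fold (95% interval 1.78 to 6.23) at ZT20.6 ± 1.98 h in total RNA (adjusted p = 0.00884) and 3.26-fold (95% interval 1.72 to 6.18) at ZT19.2 in footprints (adjusted p = 0.011). Without the ZT16 pools the fits gave 3.07-fold (adjusted p = 0.00308) and 2.66-fold (0.0238). With a free level for each time, footprints of Cyp2b10 did not pass (adjusted p = 0.120). Cyp1a2, the caffeine oxidase induced through Ahr, ranged from 192 RPKM (ZT10 replicate 2) through a median of 338 to 416 (ZT18 replicate 1) in total RNA and was not called (1.22-fold, adjusted p = 0.267). Cyp2f2 ranged from 593 RPKM (ZT10 replicate 2) through a median of 749 to 943 (ZT20 replicate 1) and was not called, at 1.18-fold (adjusted p = 0.0691). Cyp2r1, a vitamin D hydroxylase, ranged from 9.87 RPKM (ZT22 replicate 2) through a median of 16.2 to 19 (ZT8 replicate 1) and was not called, at 1.13-fold (adjusted p = 0.469). Cyp2u1, a fatty acid hydroxylase, peaked in the light. Its total RNA ranged from 19 RPKM (ZT16 replicate 2) through a median of 40.2 to 58.1 (ZT8 replicate 2), with both ZT16 pools the lowest. It was called at 1.51-fold (95% interval 1.2 to 1.9) with a peak at ZT5.3 in total RNA (adjusted p = 0.0144) and 1.76-fold (95% interval 1.35 to 2.29) at ZT5.9 in footprints (adjusted p = 0.00385). The total RNA call fell below 1.5-fold without any 1 of 8 pools (replicate 1 of ZT6, ZT8, ZT10 and ZT16 and replicate 2 of ZT2, ZT8, ZT14 and ZT16; 1.38 at the lowest). It was also lost without both ZT16 pools (1.3-fold, adjusted p = 0.0714) and without the pancreatic pools (1.37-fold, 0.0963), whereas the footprint call held in each of these. Cyp2j5, an arachidonic acid epoxygenase, and Cyp2j6 had small folds, at 1.13- and 1.08-fold in total RNA and 1.1- and 1.08-fold in footprints. Cyp2j5 ranged from 311 RPKM (ZT10 replicate 1) through a median of 349 to 400.4 (ZT20 replicate 1) in total RNA and passed the adjusted p there (0.0369) below the minimum fold.

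**Figure D4:**
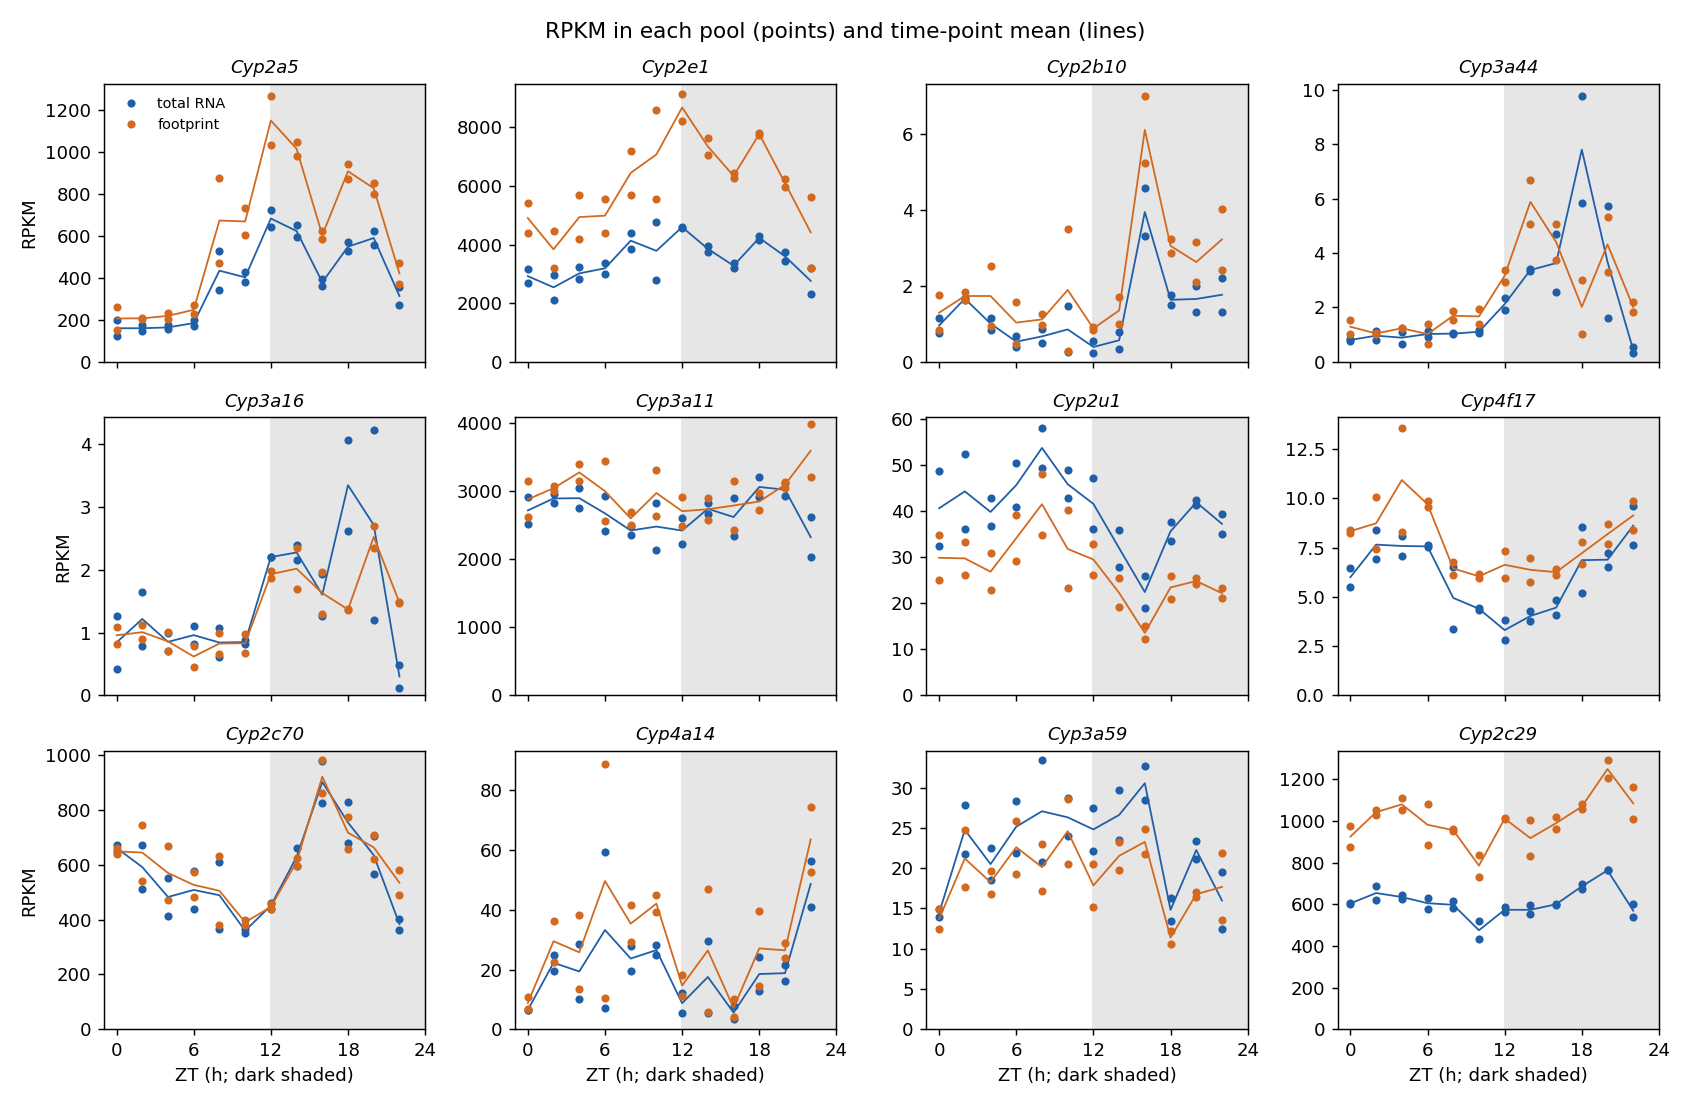
RPKM (y axes, from 0) by time (x axes, ZT in h, dark phase shaded) of 12 genes, with a point for each pool and a line through the time-point means of 2 pools, in total RNA (blue) and footprints (orange). Cyp2a5 is high from ZT8 to ZT20 with a dip at ZT16, and Cyp2e1 has its highest means at ZT12. Cyp2b10 has its highest pools at ZT16, and the replicate pools of Cyp4a14 lie far apart. The fitted waves of Cyp3a11 and Cyp2c29, not drawn here, stayed under the minimum fold. Total RNA means of Cyp2c29 run from 475 RPKM at ZT10 to 763 at ZT20.

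Among the 12 Cyp2c genes, which oxidise drugs, steroids and arachidonic acid, 1 passed in total RNA and 3 in footprints, beside 15.8% and 16.7% of all genes. Cyp2c70, which hydroxylates bile acids in mice, was called in both assays. Its total RNA values were 651 and 672 at ZT0, 673 and 509.7 at ZT2, 413 and 552 at ZT4, 439 and 577 at ZT6, 611 and 366 at ZT8 and 352 and 366 at ZT10 RPKM in the light phase. In the dark phase, Cyp2c70 stood at 439.6 and 462 at ZT12, 662 and 594 at ZT14, 978 and 826 at ZT16, 680.0 and 827 at ZT18, 704 and 566 at ZT20 and 403 and 364 at ZT22 RPKM, with ZT16 replicate 1 the highest pool and ZT10 replicate 1 the lowest. The fits were 1.53-fold (95% interval 1.15 to 2.04) at ZT18.6 (adjusted p = 0.0426) and 1.53-fold (95% interval 1.21 to 1.93) at ZT19.8 (adjusted p = 0.0123). Both calls depended on single pools. In total RNA 14 of the 24 single pools ended it when left out (replicate 1 of ZT4, ZT6, ZT10, ZT14, ZT16, ZT18 and ZT20 and replicate 2 of ZT2, ZT8, ZT10, ZT12, ZT14, ZT16 and ZT18; adjusted p 0.0518 to 0.0866, fold 1.45 to 1.53), and in footprints 5 did (replicate 1 of ZT10 and ZT16 and replicate 2 of ZT8, ZT10 and ZT16; fold 1.47 to 1.49). Without the pancreatic pools the adjusted p was 0.28 in total RNA and 0.111 in footprints, without ZT18 it was 0.129 in total RNA, and without ZT16 the folds were 1.39 and 1.44. Cyp2c29, the most abundant of the cluster, ranged from 432 RPKM (ZT10 replicate 1) through a median of 602 to 763 (ZT20 replicate 2) in total RNA and passed the adjusted p in both assays below the minimum fold, at 1.21-fold with a peak at ZT21.8 (adjusted p = 0.037) and 1.22-fold (adjusted p = 0.040). Cyp2c54 did likewise, with 1.44- and 1.43-fold. It passed in total RNA without the pancreatic pools (adjusted p = 0.0494), those of ZT16 (0.0304) or of ZT22 (0.00627). Cyp2c38 and Cyp2c55 were called in footprints alone. Cyp2c38 ranged from 7.43 RPKM (ZT6 replicate 2) through a median of 12.8 to 21 (ZT16 replicate 2) in footprints and from 10.1 RPKM (ZT0 replicate 1) through a median of 14.7 to 21.7 (ZT16 replicate 1) in total RNA. Its fits were 1.53-fold (95% interval 1.16 to 2.02) at ZT16.5 (adjusted p = 0.0354) and 1.38-fold (adjusted p = 0.0704). Its call was lost without any 1 of 7 pools (replicate 1 of ZT2, ZT16 and ZT20 and replicate 2 of ZT2, ZT6, ZT16 and ZT18; fold 1.45 to 1.51, adjusted p 0.0517 to 0.0833) without ZT16 (1.35-fold, 0.197) and without the pancreatic pools (0.0780), which in turn let total RNA pass at 1.66-fold (0.0207). Cyp2c55, an arachidonic acid hydroxylase, peaked in the light, at ZT5.1 in footprints with a fold of 1.74 (adjusted p = 0.0113) and at ZT3.2 in total RNA with 1.41-fold (adjusted p = 0.142). Its values ran from 2.32 RPKM (ZT16 replicate 1) through a median of 5.03 to 9.37 (ZT6 replicate 1) in footprints and from 2.54 RPKM (ZT16 replicate 1) through a median of 4.1 to 7.87 (ZT4 replicate 2) in total RNA. Without the pancreatic pools the footprint call was lost (adjusted p = 0.138), as it was without the pools of ZT16 (0.0512) and of ZT18 (0.0686) and with a free level for each time (0.0787). Without the ZT22 pools its paired ratio of footprints to total RNA passed (0.0326). The other 7 genes had folds of 1.06 to 1.4 in total RNA and were not called in either assay. Of these, Cyp2c37 lay just under the minimum fold in footprints (adjusted p = 0.0224). It passed there without any 1 of 14 pools, without the pancreatic pools (0.0313) and without those of ZT16, where it passed in total RNA too (0.0201).

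Of the 8 Cyp2d genes, the 3 called ones, Cyp2d11, Cyp2d12 and Cyp2d34, were scarce, and none of the abundant ones reached the minimum fold. Cyp2d9 ranged from 515 RPKM (ZT10 replicate 2) through a median of 851 to 1209.5 (ZT22 replicate 1) in total RNA and was not called, at 1.15-fold (adjusted p = 0.567). Its 3 lowest total RNA values, 515, 574 and 575 RPKM, were in ZT10 replicate 2, ZT2 replicate 1 and ZT22 replicate 2, of which the first and the last were the pools rich in Cyp2a4. Cyp2d10 and Cyp2d26 passed the adjusted p in total RNA with 1.17- and 1.24-fold and peaks at ZT20.9 and ZT18.7. Cyp2d11 was called in total RNA alone, at 2.26-fold (95% interval 1.49 to 3.44) with a peak at ZT16.6 (adjusted p = 0.00816), but not with a free level for each time (0.132). It ranged from 0.519 RPKM (ZT4 replicate 2) through a median of 1.33 to 3.22 (ZT18 replicate 1) in total RNA, about 9 to 35 reads. In footprints it ranged from 0.63 RPKM (ZT22 replicate 2) through a median of 1.55 to 3.82 (ZT20 replicate 1), and the fit gave 1.84-fold at ZT16.6 (adjusted p = 0.0592). The footprint fit passed once ZT0 replicate 1, ZT2 replicate 2, ZT18 replicate 1 or ZT22 replicate 2 was left out (adjusted p 0.0178 to 0.0438), and without the pools of ZT18 (0.030), of ZT22 (0.0255) or those rich in Cyp2a4 (0.026). The assays are thus not shown to differ. Cyp2d12 and Cyp2d34 were called in footprints alone, at 1.63-fold (95% interval 1.21 to 2.19) with a peak at ZT14.2 (adjusted p = 0.0228) and 1.84-fold (95% interval 1.29 to 2.62) at ZT16.0 (adjusted p = 0.0178). In total RNA their fits were 1.7-fold (adjusted p = 0.149) and 1.38-fold (adjusted p = 0.0833). Cyp2d12 ranged from 0.81 RPKM (ZT22 replicate 2) through a median of 1.71 to 3.3 (ZT12 replicate 1) in footprints and from 0.726 RPKM (ZT0 replicate 2) through a median of 1.43 to 3.73 (ZT18 replicate 1) in total RNA. Cyp2d34 ranged from 1.32 RPKM (ZT6 replicate 1) through a median of 2.43 to 6.14 (ZT20 replicate 1) in footprints and from 1.85 RPKM (ZT0 replicate 2) through a median of 3.35 to 4.78 (ZT12 replicate 1) in total RNA. Without ZT14 replicate 2 the Cyp2d12 footprint call was lost (adjusted p = 0.0509), while Cyp2d34 passed in total RNA (0.0164). Without ZT14 replicate 1, Cyp2d12 passed in total RNA (0.0394). Without the pancreatic pools neither footprint call held (0.0755 and 0.281), and without the ZT16 pools that of Cyp2d12 did not (0.0794). Cyp2d22 and Cyp2d40 were not called, at 1.16- and 1.33-fold in total RNA and 1.08- and 1.48-fold in footprints. Footprints of Cyp2d40 passed without the pools of ZT22 (adjusted p = 0.00553) or those rich in Cyp2a4 (0.0137).

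The Cyp3a subfamily, the main drug-clearing P450 group, held an abundant gene with no called rhythm, Cyp3a11, and scarce genes with wide ones, Cyp3a44 and Cyp3a16. Cyp3a11 had total RNA values from 2032 RPKM (ZT22 replicate 2) through a median of 2791 to 3207 (ZT18 replicate 1). Its footprint values ran from 2434 RPKM (ZT16 replicate 1) through a median of 2996 to 3991 (ZT22 replicate 1). It was not called, at 1.11- and 1.18-fold (adjusted p = 0.404 and 0.123). Cyp3a44 (chromosome 5, 145773983 to 145805874, minus strand), which female mice express more, had the widest rhythm of the 49 in total RNA. Its total RNA values were 0.759 and 0.84 at ZT0, 0.804 and 1.11 at ZT2, 0.665 and 1.1 at ZT4, 0.901 and 1.14 at ZT6, 1.04 and 1.03 at ZT8 and 1.16 and 1.05 at ZT10 RPKM in the light phase. In the dark phase, Cyp3a44 stood at 2.33 and 1.91 at ZT12, 3.41 and 3.34 at ZT14, 2.57 and 4.69 at ZT16, 9.76 and 5.85 at ZT18, 5.74 and 1.6 at ZT20 and 0.309 and 0.557 at ZT22 RPKM. The highest pools were those of ZT18. Its footprint values were 1.54 and 1.03 at ZT0, 1.01 and 1.07 at ZT2, 1.23 and 1.23 at ZT4, 1.37 and 0.665 at ZT6, 1.53 and 1.85 at ZT8 and 1.39 and 1.94 at ZT10 RPKM in the light phase. Footprints of Cyp3a44 in the dark were 3.39 and 2.94 at ZT12, 6.7 and 5.06 at ZT14, 3.74 and 5.08 at ZT16, 3.0 and 1.04 at ZT18, 5.32 and 3.31 at ZT20 and 2.21 and 1.82 at ZT22 RPKM. Up to ZT10 every library of both assays stood below 2, and values of 3 or more occurred from ZT12 to ZT20 only. The fits gave 5.29-fold (95% interval 2.88 to 9.74) at ZT15.7 ± 1.4 h (adjusted p = 3.57e-04) and 3.82-fold (95% interval 2.51 to 5.81) at ZT15.7 (adjusted p = 5.27e-05), with adjusted p of 0.0102 and 0.0044 or less under every alternative. Both ZT22 pools were the lowest of the 24 in total RNA but not in footprints, and ZT18 total RNA, the shallowest, was the highest. Without ZT22 the total RNA fold was 5.49 and without ZT18 3.96. Cyp3a16, known mainly from fetal and young mice, was called at 2.92-fold (95% interval 1.5 to 5.66) and ZT15.1 in total RNA (adjusted p = 0.0283) and 2.54-fold (95% interval 1.86 to 3.46) and ZT17.3 in footprints (adjusted p = 1.17e-04). Its total RNA ranged from 0.118 RPKM (ZT22 replicate 1) through a median of 1.15 to 4.22 (ZT20 replicate 1), and the call there was lost without ZT18 (adjusted p = 0.076). Both genes rested on about 24 and 21 reads in the median total RNA library and shared 53.5% and 30.1% of their 30-base stretches with other genes, Cyp3a11 among them; whether some of their reads belong to a copy was not tested.

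In Cyp3a25 and Cyp3a59 the fitted peaks lay between ZT9.0 and ZT12.7, and their distance from that of Cyp3a44 was not tested. Cyp3a25, the second most abundant gene of the subfamily, ranged from 267 RPKM (ZT0 replicate 2) through a median of 406 to 671 (ZT14 replicate 1) in total RNA. It had 1.49-fold in total RNA with a peak at ZT10.7 (adjusted p = 0.00268), just under the minimum fold, and 1.32-fold at ZT12.7 in footprints (adjusted p = 0.0437). It passed in total RNA without any 1 of 10 pools and without the pools with pancreatic transcripts (0.00342), of ZT16 (0.00307) or of ZT18 (0.00221). Cyp3a59, its near copy, ranged from 12.4 RPKM (ZT22 replicate 1) through a median of 22.3 to 33.4 (ZT8 replicate 1) in total RNA and from 10.6 RPKM (ZT18 replicate 1) through a median of 19.5 to 28.6 (ZT10 replicate 2) in footprints. It was called in total RNA alone, at 1.61-fold (95% interval 1.25 to 2.08) and ZT10.5 (adjusted p = 0.0106). Footprints gave 1.44-fold at ZT9.0 (adjusted p = 0.052) and passed without ZT8 replicate 2, ZT12 replicate 2 or ZT22 replicate 2 (adjusted p 0.0217 to 0.0347), without the pancreatic, ZT16 or ZT22 pools (0.0245 to 0.0495) and with a free level for each time (0.0447). The ratio of Cyp3a11 to Cyp3a25 moved 1.66-fold (95% interval 1.4 to 1.96) in total RNA, highest at ZT22.5 (permutation test, adjusted p = 2.45e-04). In footprints it moved 1.55-fold (95% interval 1.28 to 1.89; 5.60e-04). The wave thus took a larger share of the variance of the ratio than with times shuffled over the pools. Cyp3a13 was not called (1.37-fold, adjusted p = 0.172), although both ZT16 pools were its highest, at 259 and 237 RPKM in total RNA against at most 163 elsewhere. Its footprints passed without the ZT18 pools (adjusted p = 0.0349).

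In family 4, 1 of 12 genes was called in total RNA and 2 in footprints, beside 15.8% and 16.7% of all genes. All had peaks from ZT0 to ZT12. Cyp4f17 (chromosome 17, 32506050 to 32530143, plus strand) was the clearest, with total RNA values of 6.49 and 5.51 at ZT0, 6.92 and 8.39 at ZT2, 7.06 and 8.11 at ZT4, 7.51 and 7.61 at ZT6, 6.52 and 3.38 at ZT8 and 4.46 and 4.34 at ZT10 RPKM in the light phase. In the dark phase, Cyp4f17 stood at 3.84 and 2.8 at ZT12, 4.31 and 3.76 at ZT14, 4.85 and 4.06 at ZT16, 5.18 and 8.55 at ZT18, 6.53 and 7.25 at ZT20 and 9.62 and 7.62 at ZT22 RPKM, low from ZT10 to ZT16 and high from ZT20 to ZT6. It was called at 2.06-fold (95% interval 1.61 to 2.63) with a peak at ZT0.4 ± 1.3 h in total RNA (adjusted p = 1.54e-04) and 1.55-fold (95% interval 1.31 to 1.84) at ZT1.5 in footprints (adjusted p = 5.86e-04). Without ZT4 replicate 2 the footprint fold fell below the minimum, to 1.47. Cyp4f14, which inactivates leukotrienes, ranged from 109.6 RPKM (ZT14 replicate 1) through a median of 148 to 198 (ZT22 replicate 1) in total RNA. It passed the adjusted p in both assays with 1.37- and 1.27-fold at ZT23.7 and ZT23.4, and Cyp4f15 with 1.31- and 1.24-fold at ZT4.5 and ZT6.2. Their ratio moved 1.42-fold (95% interval 1.21 to 1.66) in total RNA, with a peak at ZT20.5 (permutation test, adjusted p = 8.40e-04), and 1.43-fold (95% interval 1.25 to 1.64) in footprints (4.55e-04). Cyp4b1, an omega hydroxylase that also activates plant furans, ranged from 10.9 RPKM (ZT16 replicate 1) through a median of 14.9 to 26.5 (ZT22 replicate 2) in total RNA and passed the adjusted p with 1.42- and 1.41-fold, with peaks at ZT1.9 and ZT2.0. Cyp4v3 ranged from 261 RPKM (ZT22 replicate 2) through a median of 361 to 449.5 (ZT0 replicate 1) and was not called, at 1.08-fold (adjusted p = 0.686). Nor were Cyp4f13 and Cyp4f16, at 1.14- and 1.16-fold in total RNA.

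The Cyp4a genes are omega hydroxylases of fatty acids and targets of the receptor Ppara. In the wave fit 1 was called, Cyp4a31 in footprints, and Cyp4a10 and Cyp4a14 varied widely between replicate pools. Cyp4a12a, which male mice express more, was the most abundant and ranged from 149 RPKM (ZT16 replicate 1) through a median of 303 to 387 (ZT22 replicate 1) in total RNA, with both ZT16 pools the lowest. It reached 1.46-fold at ZT2.0 in footprints (adjusted p = 0.0458) and 1.28-fold in total RNA (adjusted p = 0.256). Its copy Cyp4a12b had 1.46- and 1.43-fold, and the ratio of the 2 did not pass, at 1.15-fold (95% interval 1.0 to 1.44) in total RNA (permutation test, adjusted p = 0.589). With a free level for each time Cyp4a12a passed in total RNA (adjusted p = 0.0288) and footprints (0.046). Cyp4a12b did so too (0.0037 and 0.0152). Cyp4a31 was called in footprints alone, at 1.79-fold (95% interval 1.22 to 2.64) and ZT10.4 (adjusted p = 0.0395), with 1.76-fold in total RNA (adjusted p = 0.119). It ranged from 1.87 RPKM (ZT0 replicate 2) through a median of 3.64 to 8.77 (ZT10 replicate 1) in footprints and from 1.01 RPKM (ZT16 replicate 1) through a median of 3.01 to 7.05 (ZT10 replicate 1) in total RNA. The call was lost without any 1 of 12 pools (replicate 1 of ZT0, ZT2, ZT8, ZT10, ZT14 and ZT18 and replicate 2 of ZT0, ZT2, ZT6, ZT10, ZT14 and ZT18; adjusted p 0.0504 to 0.099), without the pancreatic pools (0.104), without ZT18 (0.0664) and without both pools rich in Cyp2a4 (0.0624). Total RNA passed without ZT16 replicate 1 (0.0176) or ZT22 replicate 2 (0.0459) and without both ZT16 pools (0.0137). Cyp4a10 and Cyp4a14 were not called, at 1.28- and 1.84-fold in total RNA. The 2 pools of ZT6 held 59.5 and 7.03 RPKM of Cyp4a14 in total RNA and 88.9 and 10.4 in footprints. Those of ZT14 held 29.5 and 5.58 in total RNA. Over all times its replicate SD was 0.95 on the log2 scale, above that of 98.96% of all genes. The median replicate SD of the 49 genes was 0.24, and that of all genes 0.18.

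**Figure D5:**
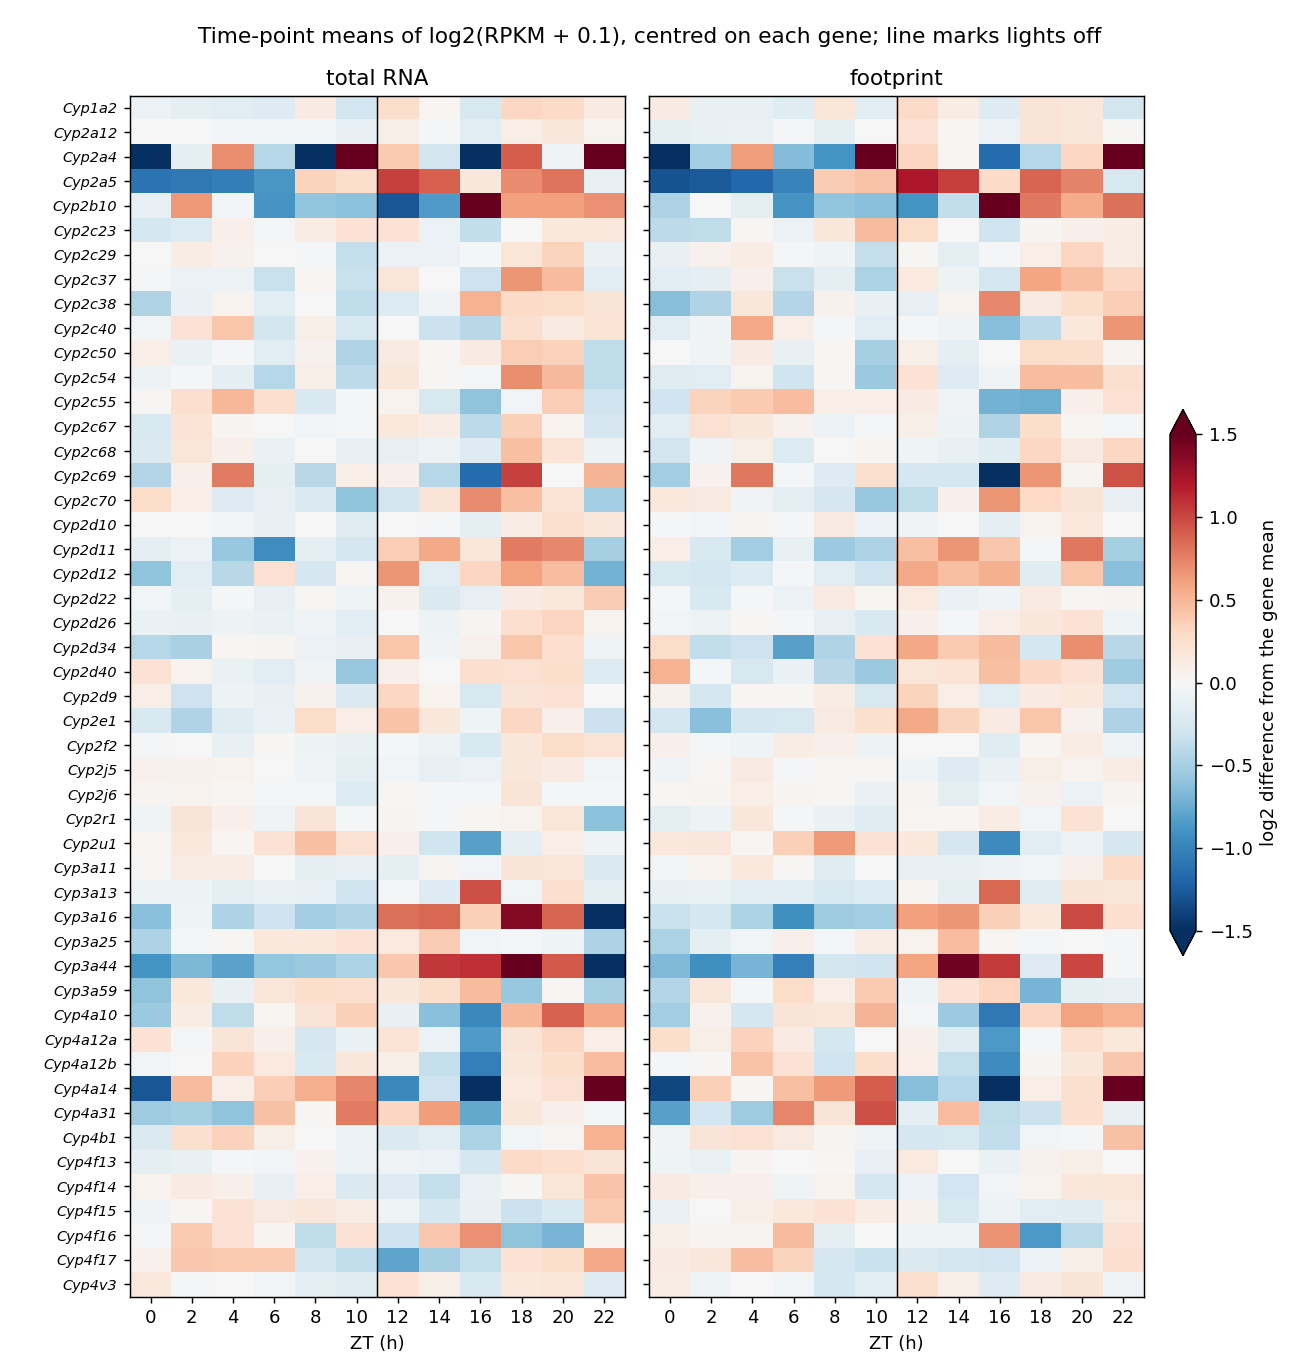
Time-point means (n = 2 pools) of log2(RPKM + 0.1), centred on the mean of each gene, for the 49 genes (rows, by subfamily) at 12 times (columns, ZT in h) in total RNA (left) and footprints (right); red is above and blue below the gene mean, with colours saturating at 1.5. Cyp2a5, Cyp3a16 and Cyp3a44 are red at ZT12, ZT14, ZT16 and ZT20 in both panels, while Cyp3a16 and Cyp3a44 are blue at ZT22 in total RNA. At ZT16 the 5 Cyp4a rows are blue while Cyp2b10, Cyp2c70 and Cyp3a13 are red.

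Pairs of the most abundant genes of a subfamily were compared by the rhythm of their ratio, 7 pairs in each assay. Beside the Cyp2a, Cyp3a and Cyp4f pairs above, which passed in both assays, 4 did not. Cyp2c29 over Cyp2c70 moved 1.39-fold (95% interval 1.04 to 1.85) in total RNA (permutation test, adjusted p = 0.144) and 1.3-fold (95% interval 1.0 to 1.73) in footprints (0.236), and passed in total RNA without the ZT22 pools (0.0428). The intervals for Cyp2d9 over Cyp2d26 reached 1.37 and 1.48, and those for Cyp2j5 over Cyp2j6 1.2 and 1.15, and swings up to these sizes lie within them.

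Mean translation efficiency, the log2 of the footprint over the total RNA value averaged over the 24 pools, was high for most of these genes. It is relative between genes, since each assay is scaled to itself. The median over the 49 was 0.25, beside -0.34 over all 9445 genes, with 45 of 49 above the latter and 36 of 49 above the upper quartile of all genes (0.12). Cyp2f2 was the highest at 1.21 ± 0.15 (SD over 24 pools), then Cyp1a2 at 1.04 ± 0.17, Cyp2d22 at 0.89 ± 0.15, Cyp2c23 at 0.84 ± 0.15 and Cyp2e1 at 0.78 ± 0.15. The lowest were Cyp2c40 at -1.27 ± 0.42, Cyp2d40 at -0.98 ± 0.23, Cyp2r1 at -0.88 ± 0.26 and Cyp2u1 at -0.57 ± 0.16. Close copies could lie far apart: Cyp2c69, which shared 62.5% of its 30-base stretches with Cyp2c40, stood at 0.76 ± 0.35, both values uncertain for the reads they may share. Cyp3a11 had 0.14 ± 0.19 and Cyp3a25 -0.18 ± 0.17.

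A rhythm of translation efficiency was not detected in the fit over 48 libraries, where 0 of the 49 genes passed (limma, 0 also at an unadjusted p under 0.05) beside 0.371% of all genes (11% at the unadjusted p). With the ratio taken within each pool, which pairs the assays by their shared lysate, 2 genes passed, Cyp2a5 and Cyp2e1, and 13 had an unadjusted p under 0.05, beside 3.23% and 21.9% of all genes. Over all 9445 genes the paired calls fell from 305 to 2 without the 6 pools with pancreatic transcripts, and to 61 with a free level for each time. For Cyp2a5 the ratio moved 1.32-fold (95% interval 1.21 to 1.44) with a peak at ZT13.4 (adjusted p = 0.00482), which held without any single pool but not without the 6 pools with pancreatic transcripts (0.127, at 1.33-fold) and not with a free level for each time (0.165). For Cyp2e1 it moved 1.25-fold (1.13 to 1.39) with a peak at ZT14.5 (0.0332). This call was lost without any 1 of 10 pools (replicate 1 of ZT2, ZT4, ZT6, ZT14, ZT16 and ZT18 and replicate 2 of ZT2, ZT12, ZT14 and ZT16; adjusted p 0.050006 to 0.0637) and without the pancreatic pools (0.386), the pools of ZT16 (0.0851) or of ZT18 (0.0729), and with a free level for each time (0.276). The 7 genes called in 1 assay alone (Cyp2d11 and Cyp3a59 in total RNA, Cyp2c38, Cyp2c55, Cyp2d12, Cyp2d34 and Cyp4a31 in footprints) did not pass in either efficiency fit, so their assays are not shown to differ. Cyp2c55 passed the paired fit without the ZT22 pools (1.61-fold, adjusted p = 0.0326). Across the 8 genes called in both assays, footprints peaked 0.557 h after total RNA at the median, from -1.33 h (Cyp2b10) to 2.21 h (Cyp3a16), and 3 of the 8 had the wider fold in footprints.

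Por and Alas1, on which the P450 enzymes of the endoplasmic reticulum depend, had wide rhythms. Of 13 genes for electron donors and heme synthesis, 4 passed in total RNA and 3 in footprints (15.8% and 16.7% of all genes), with median folds of 1.28 and 1.24. Por, which passes electrons to all these enzymes, moved 3.7-fold at ZT13.4 in total RNA and 3.71-fold at ZT13.1 in footprints, and Alas1, the rate-limiting enzyme of heme synthesis, 4.89-fold at ZT13.2 and 5.41-fold at ZT13.2. The mitochondrial Cyb5b moved 1.56-fold at ZT0.5 in total RNA and 1.67-fold at ZT22.9 in footprints. Ppox, an enzyme of heme synthesis, was called in total RNA alone (1.54-fold at ZT2.8), with 1.42-fold in footprints (adjusted p = 2.21e-04). Of 25 regulators, 11 were called in each assay. The D-box factors Dbp (57-fold at ZT10.8), Tef (6.49-fold at ZT13.0) and Hlf (2.26-fold at ZT15.1) peaked from ZT10.8 to ZT15.1 and their antagonist Nfil3 late in the dark (4.27-fold at ZT22.8). Of the xenobiotic receptors, Nr1i3 (CAR) moved 1.68-fold at ZT15.4 in total RNA and 1.64-fold at ZT15.5 in footprints. Nr1i2 (the pregnane X receptor) had 1.11-fold (adjusted p = 0.57) and Ahr 1.4-fold (0.0177), and neither was called in either assay. Ppara was called in footprints (1.64-fold at ZT10.9) and had 1.49-fold in total RNA (adjusted p = 1.96e-04), under the minimum. The remaining regulators called in both assays were Stat5a, Stat5b, Esr1, Nr0b2 and Nr1h4 (the bile acid receptor), and Cebpb in total RNA alone. Among 10 P450 genes of other families, 4 were called in each assay: Cyp7a1, the rate-limiting enzyme of bile acid synthesis (3.33-fold at ZT15.9 in total RNA), Cyp8b1 (2.75-fold at ZT23.9), Cyp39a1 (1.78-fold at ZT17.3) and Cyp26a1, which breaks down retinoic acid (2.0-fold at ZT1.7). How these rhythms relate to those of the 49 genes was not tested.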

How the data were processed

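The deposited tables give RPKM values per gene for 24 footprint and 24 total RNA libraries, scaled by the authors before deposit. Per the submitters' processing notes the tools included Bowtie2 2.2.1 and TopHat2 2.0.11, beside Cufflinks 2.2.1, edgeR, cutadapt and CASAVA 1.82, and the builds were GRCm38.p2 and mm10. Their roles, and how reads that match several genes were treated, are not stated in those notes. Lysis was in cycloheximide, RNase I and size exclusion columns gave the footprints, and ribosomal RNA was depleted, per the labels' protocols. Gene names and positions came from GENCODE M21 (GRCm38), and promoter windows from RefSeq (GRCm38.p6).

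The 9445 genes averaging 1 RPKM or more in each assay were tested. A cosine wave of 24 h was fitted to log2(RPKM + 0.1) with limma 3.58.1 (R 4.3.3, intensity trend, moderated F test, Benjamini-Hochberg adjustment over all genes tested). Folds come from this scale and run from the lowest to the highest point of the fitted wave, with 95% intervals. The added 0.1 lowers the folds of low genes. A fold of the fitted wave cannot fall below 1, so spread between pools tends to raise it. Which of these weighs more in a low gene was not tested. A rhythm of translation efficiency was sought in the interaction of time with assay over 48 libraries, and again on the log2 ratio within each pool. The replicate numbers pair the assays: footprints and total RNA of a number come from the same lysate, and their deviations from the time-point means correlated (r 0.16 to 0.683, all 12 times). Ratios between the abundant genes of a subfamily were tested by 100000 permutations of the times over pools, adjusted over 7 pairs per assay, with a smallest p of 1e-05. The fitting steps were checked on simulated data. Depth was read from the smallest value steps. It limits genes of a few RPKM, which rest on few reads, and covers counting error only.

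The members and the gene lists were chosen with earlier results of these data known. Values by library (all 24, those of single times, or the lowest, median and highest) were given for the most abundant gene of each subfamily, the called one with the widest fold in total RNA, those called in translation efficiency and those whose calls differ between assays. Alternatives were another pseudocount, scaling and filter, a free level for each time (time as a factor), an added 12 h harmonic, and leaving out each pool, the pools with pancreatic transcripts or those of ZT18. Leaving out the pools rich in Cyp2a4, of ZT16 or of ZT22 was added after seeing the data. Python 3.11.15 with scipy 1.17.1 and Biopython 1.88 served for the remaining steps.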

Additional observations from a re-analysis of the deposited data

Results flagged for a closer look

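The ratio of footprints to total RNA moved over the day for Cyp2a5 and Cyp2e1, by 1.32-fold from trough to peak for the former (adjusted p = 0.00482) and 1.25-fold for the latter (adjusted p = 0.0332, limma on the ratio within each pool). In the fit that does not pair the assays neither passed (adjusted p = 0.907 and 0.778). Nor did either pass in the paired fit without the pancreatic pools (0.127 and 0.386) or with a free level for each time (0.165 and 0.276). Those settings left 2 and 61 of all 9445 genes called, from 305 in the main paired fit. The call of Cyp2e1 was also lost without any 1 of 10 pools. These 2 of 49 genes, or 4.08%, stand beside 3.23% of all genes.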

How the results depend on the processing

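Under the alternatives that fit a wave, the peaks of called genes moved by at most 1.86 h in total RNA (Cyp3a16), 1.38 h in footprints (Cyp2c70) and 0.959 h in the paired ratio (Cyp2e1). The count of 10 genes called in total RNA became 6 with a minimum of 5 RPKM, which left 40 of the 49 genes, 20 with a free level for each time and 19 with no minimum fold. The count of 13 in footprints became 6 with a minimum of 5 RPKM and 22 with no minimum fold. At 5 RPKM the 6 of 40 lay near the shares of all genes tested (15.1% in total RNA and 16.2% in footprints), so the higher share in footprints was not seen there. The 0 calls in translation efficiency became 2 with the pairing by pool (the replicate block), and those 2 became 4 with upper quartile scaling, which added Cyp2c23 and Cyp2a12, 0 without the pancreatic pools and 1 each without the pools of ZT16 and of ZT18. Over all genes the paired calls went from 305 to 346, 2, 193 and 99 in these settings. With a free level for each time Cyp2a5 and Cyp2e1 were lost and 1 other gene passed, Cyp3a44 (adjusted p = 0.0414), beside 61 of all genes. Leaving out each pool gave 8 to 11 genes in total RNA, 11 to 17 in footprints, 0 in unpaired and 1 to 3 in paired efficiency, and 3 pairs in each assay. Of all genes, 15.0% to 17.2% passed in total RNA and 15.8% to 17.6% in footprints without a single pool. In efficiency 16 to 52 of all 9445 genes then passed unpaired and 129 to 353 paired. With a pseudocount of 1, Cyp2u1 in total RNA and Cyp2c38, Cyp2d12 and Cyp4f17 in footprints fell below 1.5-fold, as Cyp2u1 did with libraries centred on their median. The cause of the other changes was not tested. Calls of single genes were both lost and gained under the alternatives, and some gains fell on genes not called in the main fits. Footprints of Cyp2c37 passed without any 1 of 14 pools, and total RNA of Cyp3a25 without any 1 of 10. Depth limits the genes of about 20 reads a library, among them Cyp2b10, Cyp2d11, Cyp3a16 and Cyp3a44. It also limits genes at a like level, such as Cyp2d12 and Cyp4f16 (means of 1.63 and 1.53 RPKM in total RNA). Close copies limit all pairs named above.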

Other observations

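The pools of ZT16 held extreme values for several of these genes. In total RNA both ZT16 pools were the highest or the lowest of all 24 for 8 of the 49 genes, beside 4.19% of all genes tested, and in footprints for 9, beside 4.94%. In both assays Cyp2b10 and Cyp3a13 were highest there, and Cyp2u1, Cyp4a12a, Cyp4a12b and Cyp4b1 were lowest. Cyp4a12b stood at 48.4 and 36.2 RPKM in the ZT16 pools of total RNA, and Cyp4b1, an omega hydroxylase, at 10.9 and 11.2. Replicate 2 of ZT16 was among the pools with pancreatic transcripts and replicate 1 was not. These genes were picked after their values were seen, and no cause was tested.

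The spread between replicate pools exceeded the median of all genes for 34 of the 49 genes in total RNA and 36 in footprints. Cyp4a14 stood at the 99.5 percentile of all genes in footprints, Cyp2c69 at 98.5 and Cyp4a10 at 97.7, with 98.96, 98.70 and 95.97 in total RNA.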
